A study of Homo sapiens with 24 samples.

Results

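The 4 replicate 3 libraries of the atrial (AM) cardiac differentiation were compared with the 8 AM libraries numbered 1 or 2, which is 12 of the 24 libraries of the series. The comparison asks what varied between replicate numbers of one differentiation protocol. It was chosen by measured values: in earlier results of these counts, libraries with the same replicate number deviated together and replicate 3 stood apart. The difference between AM replicate 3 and AM replicates 1 and 2 is therefore given as a description, with fold changes, standard errors (SE) and counts of genes but no p-value. The differences of that value between targets, and between AM and the ventricular (VM) libraries, contain it and are given in the same way. P-values are printed for replicate 2 against replicate 1 and for the VM libraries, which share replicate numbers with AM. The only exception is the adjusted p by which STAB2 was flagged between targets, which is also a description.

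All cells came from HES3, a human embryonic stem cell line, carrying GFP at NKX2-5 and mCherry at NR2F2. Cells had been edited with CRISPR-Cas9 at TRAC, the control target and a T-cell receptor gene, or at LHX2, ZNF503 or ZNF711, and differentiated as embryoid bodies for up to 14 days with modulation of Wnt signalling. The AM libraries received retinoic acid at day 4 and the VM libraries did not, and each of the 8 combinations of protocol and target had replicates 1 to 3. AM and VM are not spelled out in the labels and were read as atrial and ventricular from the retinoic acid treatment. The labels give no run, culture or date for a replicate number, so p-values measure only the spread between these libraries, which may be technical.

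Pluripotent cells pass through mesendoderm on the way to heart muscle, so a cardiac culture can also hold endoderm, which in turn can give rise to cells making the plasma proteins of fetal liver and yolk sac. Retinoic acid given to cardiac mesoderm favours an atrial identity, of which NR2F2 is a transcriptional regulator. TNNT2 encodes cardiac troponin T of the thin filament, and AFP encodes alpha-fetoprotein, the main plasma protein of the fetus.

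Total counts in the 12 AM libraries ran from 2899786 to 6353517, with 3855267 to 5548351 in replicate 3. Values are CPM, counts scaled to library size and composition over all 24 libraries. Mitochondrially encoded genes held 2.29% to 3.15% of counts in AM replicate 3 and 1.31% to 3.18% in the 8 others. RNA of the targeted genes gave no common check of the targets: ZNF503 had 1451 to 2003 counts in the 3 AM libraries labelled ZNF503 and 220 to 710 in the other AM libraries. ZNF711 was at 55.8, 41.1 and 31.2 CPM in AM ZNF711 replicates 1, 2 and 3 and at 47.4 to 73.2 CPM in the other 9 AM libraries, while TRAC and LHX2 had at most 34 counts in any AM library. Target names below are therefore those of the labels. In bulk RNA, fewer cells of a type and less RNA per cell cannot be told apart. Of the cell types checked, muscle genes were abundant (TNNT2 at 248 to 605 CPM in AM), whereas MYL2, the ventricular light chain, stayed under 3 counts in every AM library, as did 6 of 10 blood genes. The ZNF711 libraries stood apart within AM, and the counts of calls and the lists whose counts differed most are given with and without them.

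Of 17217 genes tested, 297 (1.73%) were called at an adjusted p below 0.05 (edgeR's quasi-likelihood test with target as a block, Benjamini-Hochberg adjustment). Of these, 231 (1.34% of genes tested) were higher in replicate 3 and 66 (0.383%) were lower, and 78 differed at least 2-fold. The difference had the same sign in all 4 targets for 285 of the 297. All 4 replicate 3 libraries lay above all 8 others at 98 genes (0.569% of those tested) and below them at 50 (0.29%), and 47 of the 297 called genes were among these. Without a target block 0 genes were called by edgeR, with 1824 genes at an unadjusted p below 0.05, against 2556 with the block, and DESeq2 with the block called 456.

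Single libraries moved this count. It was 72 without TRAC replicate 3, 85 without ZNF503 replicate 3, 112 without LHX2 replicate 3 and 190 without TRAC replicate 2. It was 446 without ZNF711 replicate 3, 605 without ZNF711 replicate 2 and 675 without all 3 ZNF711 libraries.

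Replicates 1 and 2 also differed from each other, and at more genes. Replicate 2 against replicate 1 gave 1573 calls (9.14%), 785 higher (4.56%) and 788 lower (4.58%). With library size as the only scaling the share of these calls that were higher went from 49.9% to 29.4%. The count was 567 without ZNF711 replicate 1, 786 without ZNF711 replicate 2, 883 without ZNF503 replicate 1 and 1001 without ZNF503 replicate 2. Taken singly, replicate 3 differed from replicate 1 at 2314 genes (13.4%) and from replicate 2 at 438 (2.54%). Of the 297 called genes, 288 were called in the same direction against replicate 1, 236 against replicate 2 and 231 against both.

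The first principal component of the 1000 most variable genes held 27.7% of the variance and placed replicate 3 highest in every target. On it, the TRAC libraries lay at -11.5, -3.04 and 13.4 for replicates 1, 2 and 3. LHX2 libraries lay at -26.6, -16.6 and 4.66, and ZNF503 libraries at -19.1, -3.13 and 10.3. The ZNF711 libraries lay at -1.98, 21.2 and 32.4, so that ZNF711 replicate 2 was above replicate 3 of the other 3 targets.

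**Figure D1:**
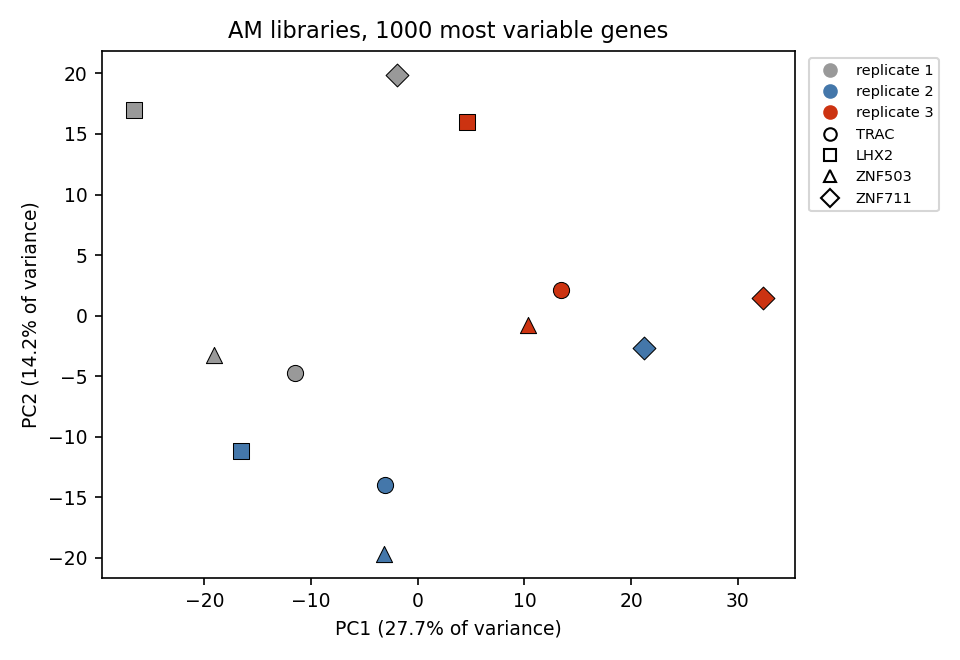
Principal components 1 and 2 of the 12 AM libraries from the 1000 most variable genes, with colour for replicate number and shape for target. Within each target replicate 3 has the highest PC1 score, and ZNF711 replicate 2, at 21.2, lies to the right of the other targets' replicate 3.

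AFP was higher in replicate 3 than in replicates 1 and 2 of every target. It stood at 472 CPM in TRAC, 440 in LHX2, 329 in ZNF503 and 899 in ZNF711 replicate 3. In replicate 1 of these targets it stood at 149, 146, 97.5 and 406 CPM, and in replicate 2 at 125, 134, 76.7 and 397 CPM. In ZNF503 replicate 3 AFP was below replicates 1 and 2 of ZNF711, so replicate 3 and the other libraries overlap across targets. The log2 fold change was 1.63 (SE 0.10, 4 against 8 libraries). AFP did not pass the test between replicates 2 and 1 (log2 fold change -0.18, SE 0.10, edgeR adjusted p = 0.289).

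TNNT2 separated replicate 1 from both other replicates. Replicate 1 held 504, 488, 402 and 605 CPM in TRAC, LHX2, ZNF503 and ZNF711, replicate 2 held 282, 280, 248 and 253, and replicate 3 held 281, 330, 286 and 280. TNNT2 fell by 0.91 on the log2 scale from replicate 1 to replicate 2 (SE 0.08, edgeR adjusted p = 3.65e-11), and replicate 1 overlapped neither of the others. Replicate 3 against replicates 1 and 2 gave -0.37 (SE 0.31, not called), and against replicate 2 alone 0.15, a change of sign. NR2F2 was level across the numbers, with 322 to 514 CPM in replicate 3 and 320 to 474 CPM in the 8 others, and a log2 fold change of 0.12 (SE 0.08, not called).

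The hepatic and visceral endoderm secretory list had the highest median of the 31 lists examined. Of 17 members tested, 12 were called higher and 0 lower (1.34% of genes were called higher), with a median log2 fold change of 1.62 against -0.01 over all genes tested. With library size as the only scaling, 11 were called and 16 were positive. Between replicates 2 and 1, 0 of 17 passed edgeR's test, with a median of -0.18. Summed over the list, replicate 3 held 1275 to 2979 CPM and the 8 others 322.9 to 1680 CPM. The 2 ranges overlap through the ZNF711 libraries, whose replicates 1 and 2 held 1680 and 1613 CPM. Without the ZNF711 libraries 14 of 17 were called higher, with a median of 1.85, where 2.53% of genes were called higher and 1.44% lower.

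RBP4, the plasma carrier of retinol, was at 35.5, 18.8, 19.9 and 69.2 CPM in replicate 3 of TRAC, LHX2, ZNF503 and ZNF711. The 8 others had a lowest value of 0.915, a median of 1.64 and a highest of 17.6 CPM, which was ZNF711 replicate 1, so no library of the first set fell within the second. The log2 fold change was 3.19 (SE 0.34), the largest under the rule for named genes. APOA4, an apolipoprotein of lipid-rich particles, was at 17.9, 3.99, 6.5 and 57 CPM in replicate 3 and at 0.165 to 4.3 CPM in the others, with a log2 fold change of 3.94 (SE 0.32). LHX2 replicate 3 lay within the range of the others for APOA4.

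APOA1, APOA2 and APOB, the structural proteins of high- and low-density lipoproteins, gave log2 fold changes of 1.87 (SE 0.15), 2.07 (SE 0.20) and 1.62 (SE 0.29). The fibrinogen chains FGG and FGA gave 2.23 (SE 0.22) and 1.47 (SE 0.14). FGB gave 1.10 (SE 0.23) and was not called. AHSG and APOC3, at 0 in some libraries of replicates 1 and 2 (0 to 6.14 and 0 to 1.09 CPM), gave fitted values of 3.6 (SE 0.45) and 3.50 (SE 0.69). SERPINA1, which encodes alpha-1-antitrypsin, gave 1.08 (SE 0.12) and VTN, vitronectin, 0.73 (SE 0.12). TTR, TF, ALB and AMBP were not called, at 1.61 (SE 0.32), 1.32 (SE 0.36), 0.25 (SE 0.65) and 0.03 (SE 0.18). AMBP changed sign with library size as the only scaling. APOB lost its call when any one of 9 of the 12 libraries was left out.

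The VM libraries share the replicate numbers, and the list was chosen with earlier results known, so they are not an independent check. In VM all 17 members rose in replicate 3 (edgeR adjusted p from 1.44e-04 for AFP to 0.0203 for ALB, 4 against 8 libraries), where 1900 of 17227 genes (11%) rose, and the median log2 fold change was 2.28. AFP rose by 2.24 (SE 0.26) in VM, RBP4 by 2.28 (SE 0.29, adjusted p = 7.34e-04) and APOA4 by 2.75 (SE 0.33, adjusted p = 5.25e-04). AFP stood at 5242 to 15350 CPM in VM replicate 3 and at 906.5 to 10550 CPM in the 8 other VM libraries, so levels in VM were above those in AM throughout. VM ZNF711 replicates 1 and 2 again lay highest among the 8, with 16520 and 29280 CPM summed over the list, against 2311 to 5943 CPM in the other 6. All 17 also passed without the VM ZNF711 libraries, with a median of 2.70. AM minus VM was called for 2 of the 17, AMBP (-2.17) and VTN (-2.11), where 2.47% of genes were called negative.

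**Figure D2:**
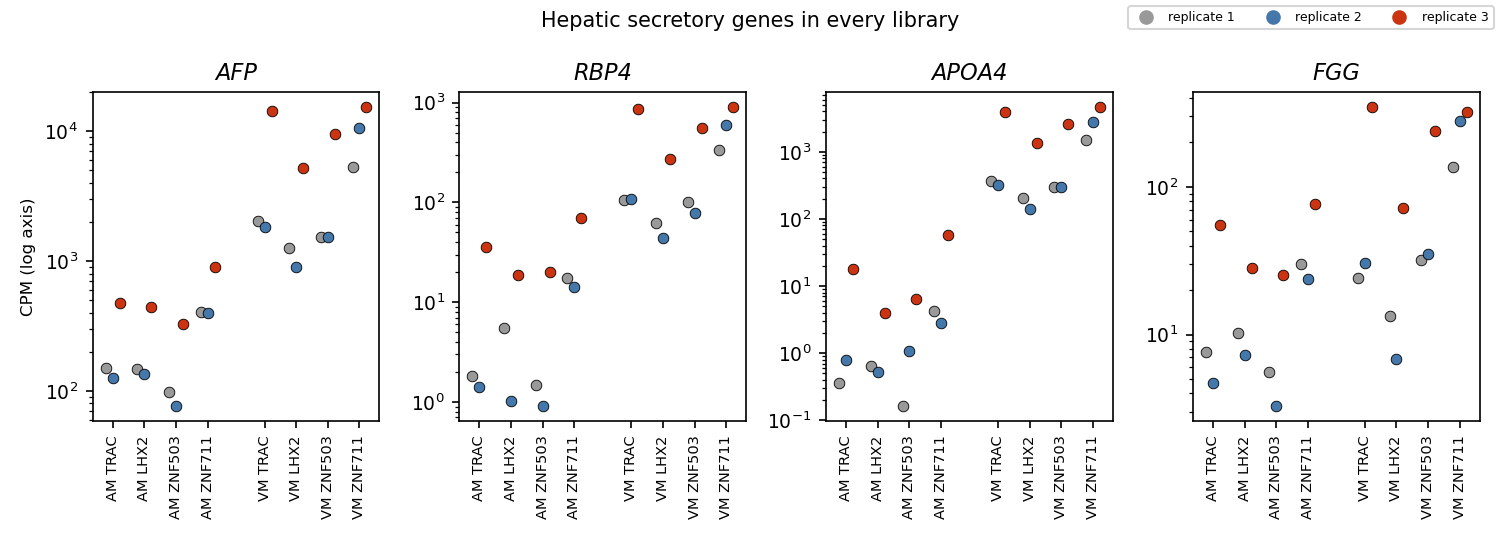
CPM on a log axis of AFP, RBP4, APOA4 and FGG in each of the 24 libraries, by protocol and target, with colour for replicate number. Within each AM target replicate 3 is highest for these 4 genes, and in ZNF711 replicates 1 and 2 lie above the same numbers in the other targets.

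Calls among endoderm regulators and epithelial genes went in both directions in AM, where 1.34% of all genes tested were called higher and 0.383% lower. Of 13 endoderm transcription factor and epithelial genes tested, CDH1 (0.40, SE 0.08) and EPCAM (0.51, SE 0.09), adhesion proteins of epithelia, were called higher in replicate 3. PDX1 (-1.09, SE 0.26), a foregut and pancreas factor, and ONECUT1 (-1.03, SE 0.24), a liver and pancreas factor, were called lower. PDX1 was at 4.37, 4.75, 9.66 and 9.89 CPM in replicate 3 of TRAC, LHX2, ZNF503 and ZNF711 and at 8.67 to 22.9 CPM in the others. Of the 13 genes, 9 had a positive fold change in AM, and the list median was 0.39. Leaving out 1 library ended the call of PDX1 in 5 of 12 fits, ONECUT1 in 4, CDH1 in 3 and EPCAM in 0. NKX2-1, a lung and thyroid factor, stayed under 3 counts in every AM library. In VM 9 of the 13 rose (11% of genes tested did) and PROX1 fell (7.84% did). HNF4A, a nuclear receptor of hepatocytes, rose by 1.85 in VM (SE 0.25, edgeR adjusted p = 3.64e-04). In AM HNF4A was not called with all libraries, and its log2 fold change was 0.44 to 0.58 in fits that left out 1 library. Against replicate 1 alone and against replicate 2 alone it was called higher in AM replicate 3. PDX1 differed between protocols by -2.55 on the log2 scale (AM minus VM).

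Under the rule for named genes, 31 higher genes were eligible and the 12 with the largest fold change are given. After RBP4 came C1orf115 (1.15, SE 0.25), PRRG4 (1.11, SE 0.26), S100A14 (1.11, SE 0.22), SLC35F2 (1.03, SE 0.12), TENT5B (0.96, SE 0.21), IGSF1 (0.79, SE 0.16) and RND3 (0.78, SE 0.14). S100A14 is a calcium-binding protein of epithelia. MSMO1 (0.68, SE 0.13), a sterol demethylating oxidase, CD9 (0.60, SE 0.13), a tetraspanin, PDLIM1 (0.59, SE 0.10), an actin-linked LIM protein, and SERPINB9 (0.59, SE 0.11), a granzyme inhibitor, completed them. SLC35F2 was at 60.9, 51.1, 48.8 and 64 CPM in replicate 3 of TRAC, LHX2, ZNF503 and ZNF711 and at 20.9 to 41.3 CPM in the others. RBP4, SLC35F2, RND3 and PDLIM1 kept their call when any 1 of the 12 libraries was left out, and the other 8 lost it in 1 to 4 of the 12 fits.

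These 12 split in VM. RBP4, C1orf115 (1.30), S100A14 (2.25), TENT5B (0.94), IGSF1 (1.88), RND3 (0.80), MSMO1 (1.43), CD9 (0.77) and PDLIM1 (0.58) rose in VM replicate 3 (edgeR adjusted p from 5.34e-05 for S100A14 to 0.0102 for RND3). PRRG4 (0.72, adjusted p = 0.192), SERPINB9 (0.20, adjusted p = 0.246) and SLC35F2 (0.04, adjusted p = 0.93) did not pass.

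Only 6 lower genes were eligible under that rule. NHS (-0.70, SE 0.15), an actin regulator mutated in Nance-Horan syndrome, was at 19.6 to 24.7 CPM in replicate 3 and 27.6 to 44.7 CPM in the others. RYR1 (-0.67, SE 0.12), the skeletal muscle calcium release channel, was at 36.1 to 43.1 CPM against 46.3 to 90.9 CPM. GLI2 (-0.61, SE 0.14), a transcription factor of Hedgehog signalling, was at 19.6 to 36.1 CPM against 36.2 to 49 CPM. HMCN1 (-0.57, SE 0.08), an extracellular matrix protein, CACNA1H (-0.45, SE 0.08), a T-type calcium channel, and PIK3C2B (-0.40, SE 0.09), a lipid kinase, completed them. In VM, RYR1 (-0.60, adjusted p = 0.029) and HMCN1 (-0.51, adjusted p = 6.56e-03) also fell, while NHS (0.42, adjusted p = 0.0857) and GLI2 (0.21, adjusted p = 0.365) did not pass.

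Larger differences lay outside that rule, and the genes in this paragraph and the next were named after their values were seen. HGF, hepatocyte growth factor, was at 5.65, 1.14 and 4.83 CPM in replicate 3 of TRAC, LHX2 and ZNF503 and at 27.6 to 47.1 CPM in replicates 1 and 2 of these targets. In ZNF711 it was at 1.64, 5.84 and 2.34 CPM in replicates 1, 2 and 3. TBX1, a T-box factor of pharyngeal and second heart field mesoderm, was at 4.01, 2.85 and 2.79 CPM in replicate 3 of those 3 targets against 17.5 to 31.7 CPM, and at 5.11, 4.23 and 2.34 CPM in ZNF711. TENM1, a teneurin of cell adhesion, was at 16, 14.3 and 10.8 CPM in replicate 3 of those targets, at 39 to 58.8 CPM in their replicates 1 and 2, and at 12.1, 11.7 and 10.9 CPM in ZNF711. For all 3 genes, replicates 1 and 2 of ZNF711 were thus near the replicate 3 level of the other targets, although TBX1 in all 4 replicate 3 libraries still lay below the lowest other library. The log2 fold changes over 12 libraries were -2.99 (SE 0.48) for HGF, -2.70 (SE 0.29) for TBX1 and -1.47 (SE 0.23) for TENM1.

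EDN3, an endothelin, gave -1.47 (SE 0.31) and EBF3, an early B-cell factor family member, -1.39 (SE 0.26). HAND1, a heart field transcription factor, ran the other way, at 64.7, 68.1 and 72.4 CPM in replicate 3 of TRAC, LHX2 and ZNF503, 14.7 to 33.4 CPM in their replicates 1 and 2, and 86.5, 52 and 87.2 CPM in ZNF711. Its log2 fold change was 1.34 (SE 0.27), the call was lost in 9 of 12 fits that left out 1 library, and in VM HAND1 stood at 53.75 to 92.45 CPM in all 12 libraries. CUBN (1.37, SE 0.19) and MEP1A (1.5, SE 0.24), an endocytic receptor and a protease of absorptive epithelia, were also higher in replicate 3.

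**Figure D3:**
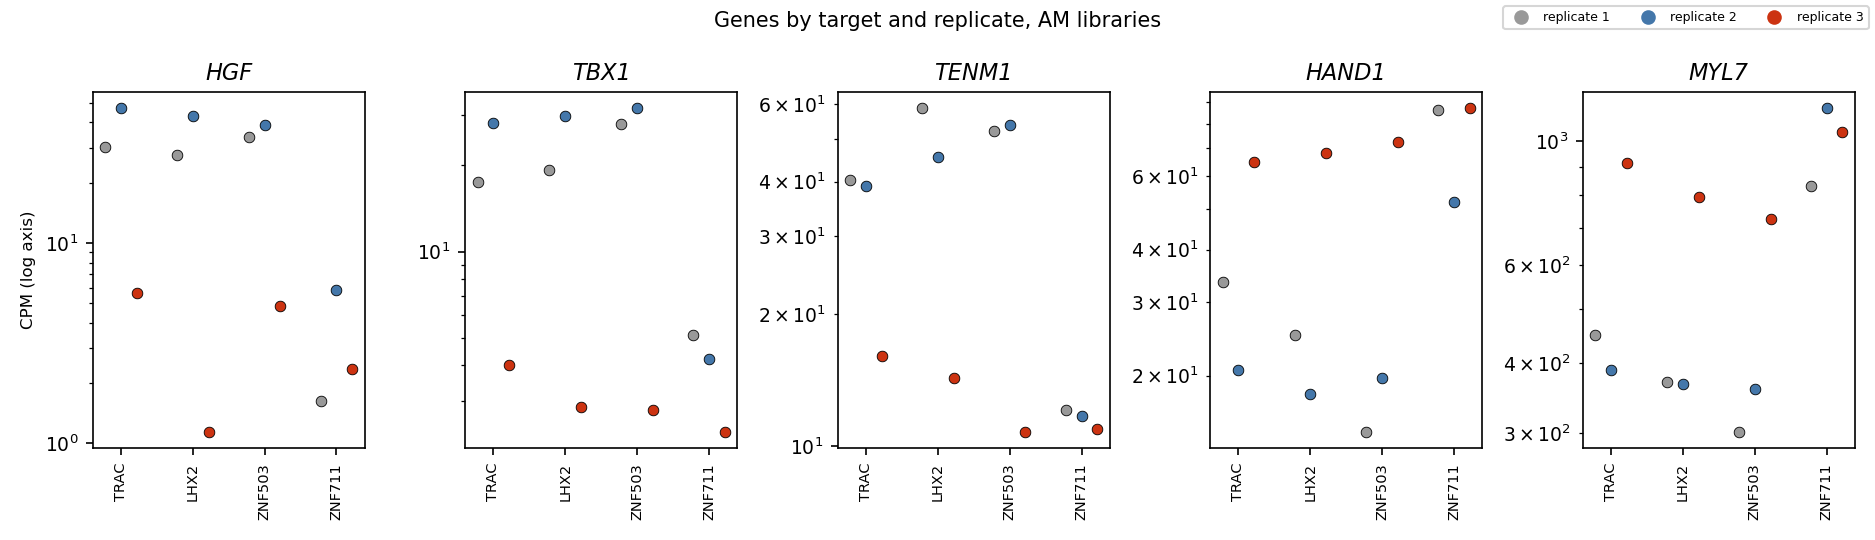
CPM on a log axis of HGF, TBX1, TENM1, HAND1 and MYL7 in the 12 AM libraries by target, with colour for replicate number. In TRAC, LHX2 and ZNF503 replicate 3 is apart from replicates 1 and 2, whereas the 3 ZNF711 libraries lie together near the replicate 3 level of the other targets.

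When the comparison was run on the other 3 targets, 430 genes were higher and 245 lower in replicate 3. At the 430 genes the ZNF711 libraries, which had no part in that fit, were higher in replicate 3 than the mean of replicates 1 and 2 at 315 (73.3%, against 50.3% of all genes tested), with a median difference of 0.17 on the log2 scale against 0.61 in the other 3 targets. At the 245 genes they were lower at 148 (60.4%, against 49.6%), with a median of -0.09 against -0.68. ZNF711 replicates 1 and 2 lay above replicates 1 and 2 of the other targets at 426 of the 430 genes (99.1%, against 49.7% of all genes). The median of that difference was 0.615. At the 245 genes they lay below at 239 (97.6%, against 50.3%), with a median of -0.622. The values of the other targets also chose these genes. The ZNF711 libraries are among those by which the comparison was chosen, so these shares are a description and not an independent check. Over the 231 genes called higher with all targets, the median difference was 0.73 in TRAC, 0.70 in LHX2, 0.75 in ZNF503 and 0.37 in ZNF711. Whether the ZNF711 target or a difference between cultures moved these libraries was not tested.

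The difference of replicate 3 varied between targets at 1 gene of 18925 (0.00528%, edgeR's quasi-likelihood test of 3 terms), with 371 genes at an unadjusted p below 0.05 and 7 called by DESeq2. Each target had 1 replicate 3 library, and the spread in this test came from replicates 1 and 2, which differed from each other. Few calls therefore do not show that the targets agreed. The gene called was STAB2, a scavenger receptor of sinusoidal endothelium. STAB2 was at 50.3, 87.4 and 40.6 CPM in TRAC replicates 1, 2 and 3, at 36.3, 59.5 and 0.951 CPM in LHX2, at 37.2, 37 and 3.9 CPM in ZNF503 and at 6.96, 4.03 and 7.29 CPM in ZNF711. Replicate 3 was lowest in LHX2 and ZNF503, TRAC replicate 3 lay within the range of replicates 1 and 2 of those targets, and ZNF711 was low in all 3. The number of genes called was 0 without LHX2 replicate 3 (421 at an unadjusted p below 0.05), 2 without ZNF503 replicate 1, 5 without ZNF711 replicate 1 and 8 without ZNF711 replicate 2.

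Few heart muscle genes were called in AM replicate 3 with all targets, and more without ZNF711. Of 20 cardiomyocyte genes, 16 had a positive fold change, MYL7, ACTC1 and MYL4 were called higher (1.34% of genes were), 0 were called lower, and the median was 0.38. MYL7, the atrial regulatory light chain, was at 913, 795, 725 and 1041 CPM in replicate 3 of TRAC, LHX2, ZNF503 and ZNF711, at 302 to 449 CPM in replicates 1 and 2 of the first 3, and at 834 and 1147 CPM in those of ZNF711. Its log2 fold change was 0.88 (SE 0.15), with 0.64 (SE 0.11) for ACTC1, cardiac actin, and 0.42 (SE 0.09) for MYL4, the atrial essential light chain. Without the ZNF711 libraries 13 of the 20 were called higher (2.53% of genes were) and the median was 0.58. Summed CPM of the list in replicate 3, 25840 to 30670, lay inside the 17590 to 35680 CPM of the others.

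In VM the cardiomyocyte list went the other way. There 8 of 20 fell in replicate 3 (TNNT2, MYOM1, MYBPC3, TTN, MYL3, MYH6, MYL4 and RYR2), where 7.84% of genes tested fell, NPPB rose, and the median was -0.42. TNNT2 fell by 1.23 in VM (SE 0.28, adjusted p = 0.0125), with adjusted p from 0.0544 to 0.0671 without replicate 3 of LHX2, ZNF503 or TRAC. VM replicates 1 and 2 also differed at TNNT2, which was called lower in replicate 2 against replicate 1. It was the 1 gene of the 20 called lower there (1411 of 17227 genes were), while 9 were called higher (1473 genes were). AM minus VM was called positive for 12 of the 20 (1.99% of genes were), including MYL7 (1.08) and RYR2 (1.23), and negative for 0. For TNNT2 that difference was 0.83 and not called, and with a replicate block that pairs AM and VM libraries it was 0.84 and called.

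The atrial, pacemaker and calcium handling lists held 1 call each in AM, where 1.34% of all genes tested were called higher and 0.383% lower. KCNJ5, a subunit of the atrial acetylcholine-gated potassium channel, was the 1 atrial gene of 10 called (0.81, SE 0.20), and TBX3 (0.77, SE 0.12), a repressor that marks the pacemaker lineage, the 1 pacemaker gene of 9. JPH2 (0.42, SE 0.10), which couples membrane and calcium store, was the 1 of 11 calcium handling genes. SHOX2, a pacemaker factor, was not called in AM (-0.32, SE 0.12) and stood at 150 CPM in replicate 3 and 181 CPM in the others on average, while in VM it rose from a mean of 0.272 to 2.52 CPM (adjusted p = 5.68e-03), with some libraries at 0. The AM minus VM difference was called (-3.52), and its size rests on these low VM counts. NR2F2 rose in VM by 0.77 (SE 0.15, adjusted p = 1.38e-03), to 37.82 to 85.88 CPM from 18.88 to 78.15 CPM, and AM minus VM was -0.66.

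Markers of other lineages were called singly in each direction, where 1.34% of all genes tested were called higher and 0.383% lower. LUM (1.52, SE 0.28), a stromal proteoglycan, was the 1 fibroblast gene of 11 called, and ACTA2 (0.46, SE 0.11), smooth muscle actin, the 1 smooth muscle gene of 8. Of 8 epicardial genes LRRN4 was higher (0.64, SE 0.13) and SEMA3D lower (-0.62, SE 0.16). DCX, a microtubule protein of young neurons, was lower (-0.94, SE 0.20), the 1 neural gene of 7 called, and the list's median was -0.54. The summed neural list stood at 41.23 to 80.54 CPM in replicate 3 and 57.89 to 132.6 CPM in the others. Of 13 endothelial genes 0 were called by edgeR and the median was -0.23, with 532 to 705.7 CPM summed in replicate 3 and 556.8 to 925.1 CPM in the others. L1TD1 (0.70, SE 0.16) was the 1 pluripotency gene of 6. Single genes in these lists were held by few libraries: leaving out 1 library ended the call in 9 of 12 fits for KCNJ5, 8 for JPH2, 7 for ACTA2, SEMA3D and DCX, 3 for LRRN4 and L1TD1, 1 for LUM and 0 for TBX3.

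Signalling and metabolic lists held small differences. BMP4 (0.41, SE 0.10), a ligand, and ID1 (0.41, SE 0.09), a target of it, were higher, as was LEF1 (0.44, SE 0.12), a Wnt-responsive factor. STRA6, the receptor that takes up retinol from RBP4, was lower (-0.56, SE 0.14), the 1 gene of 9 called in the retinoic acid list, and it fell in VM as well (-0.53, SE 0.12, adjusted p = 5.96e-03). Of 19 hypoxia genes, SLC2A3 (0.69, SE 0.09) and SLC2A1 (0.68, SE 0.11), glucose transporters, NDRG1 (0.42, SE 0.09) and P4HA1 (0.38, SE 0.09), a collagen prolyl hydroxylase, were higher. SLC2A3 was at 1129, 1464, 1328 and 1508 CPM in replicate 3 of TRAC, LHX2, ZNF503 and ZNF711 and at 634 to 1204 CPM in the others, so that the sets overlapped only through ZNF711 replicate 1. Of 16 cholesterol synthesis genes MSMO1 and HMGCS1 (0.31, SE 0.08) were called higher in AM (1.34% of genes were) and 14 rose in VM (11% of genes did). AM minus VM was called negative for 11 of the 16 (2.47% of genes were) and positive for 0. PPARGC1A, a coactivator of mitochondrial genes, was higher in AM (0.34, SE 0.09) and fell in VM (-0.61, SE 0.18, adjusted p = 0.0297). Leaving out 1 library ended the AM call in 9 of 12 fits for LEF1, HMGCS1 and PPARGC1A, 6 for BMP4, STRA6 and P4HA1, 5 for ID1, 2 for NDRG1 and 0 for SLC2A1 and SLC2A3. LEF1 and PPARGC1A also lost it with library size as the only scaling and with relative log expression scaling. Without the ZNF711 libraries, 7 of 13 mitochondrially encoded genes were called higher (median 0.47, against 0 called and 0.32 with them), as were 3 of 14 nuclear respiratory chain, 3 of 8 fatty acid oxidation, 4 of 10 BMP and ID, 3 of 11 calcium handling and 4 of 16 cholesterol synthesis genes, where 2.53% of all genes were. In that fit 5 of 19 hypoxia genes were called higher, and 3 endoderm transcription factor and epithelial genes were called higher and 2 lower.

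**Figure D4:**
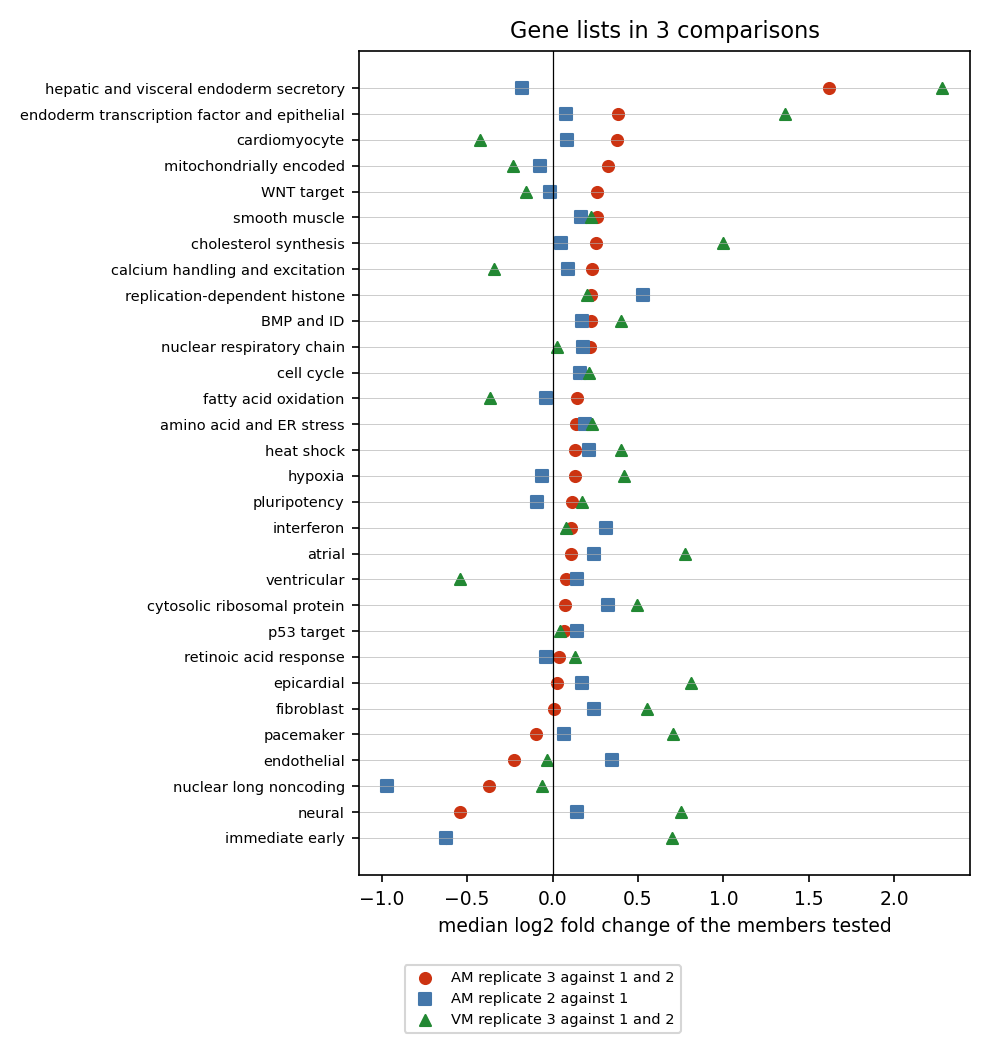
Median log2 fold change of each gene list, blood left out with 2 genes tested, for AM replicate 3 against 1 and 2, AM replicate 2 against 1 and VM replicate 3 against 1 and 2. The hepatic secretory list stands at 1.62, -0.18 and 2.28, and the immediate early and nuclear long noncoding lists are lowest in AM replicate 2 against 1, at -0.62 and -0.97.

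Replicate 1 differed from both other replicates in several further lists. Immediate early genes, which switch on within minutes of stimulation, were high in replicate 1: EGR1 stood at 263, 289, 230 and 619 CPM in replicate 1 of TRAC, LHX2, ZNF503 and ZNF711, and at 39.1 to 77.4 CPM in replicates 2 and 3. Replicate 1 overlapped neither. EGR1 fell by 2.58 (SE 0.43, adjusted p = 0.0157) from replicate 1 to 2, FOS by 2.01 (SE 0.25, adjusted p = 3.23e-03) and NR4A1 by 2.21 (SE 0.51, adjusted p = 0.0478), and 5 of 10 listed genes fell in all (4.58% of genes did). NR4A1 lost the call in 9 of 12 fits that left out 1 library, and EGR1 in 3. Replicate 3 against 1 and 2 called 0 of the 10, with a median of -0.62, the same as for replicate 2 against 1. Against replicate 1 alone, replicate 3 was called lower at 7 of the 10 (6.45% of genes were), with a median of -0.90, and against replicate 2 alone at 0.

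Ribosomal protein genes rose in replicate 2 against replicate 1 at 54 of 77 tested (4.56% of all genes rose), with a median of 0.32, and RPS10 fell. With library size as the only scaling 40 rose. Replication-dependent histone genes rose at 24 of 52, with a median of 0.53, and the nuclear noncoding RNAs MALAT1 (-0.75, SE 0.09, adjusted p = 1.54e-05) and NEAT1 (-1.19, SE 0.11, adjusted p = 5.7e-06) fell. RN7SL1, the RNA of the signal recognition particle, rose by 1.10 (SE 0.16, adjusted p = 6.33e-03), the small nucleolar RNA SNORA73B by 1.30 (SE 0.23, adjusted p = 2.09e-04) and NUDT11 by 0.97 (SE 0.26, adjusted p = 0.0112). RN7SL1 and histone transcripts carry no long poly(A) tail, and the labels name both polyA RNA and ribosomal RNA removal for these libraries. Whether RNA selection had a part in any of these differences was not tested. Replicate 3 against 1 and 2 called 1 ribosomal protein gene of 77 (RPS27L) and 0 of 52 histone genes, and by edgeR 0 of 4 nuclear noncoding RNAs (median -0.37). Against replicate 1 alone, replicate 3 was called higher at 42 of 77 ribosomal protein and 21 of 52 histone genes (6.99% of genes were) and lower at 3 of 4 nuclear noncoding RNAs.

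The calls were spread unevenly over transcript length, with no single order. Among 16700 of the 17217 genes with an exon length (97%), genes with over 8000 exonic bases rose in replicate 2 at 63 and fell at 324 of 3293, with a median of -0.06. Genes of 1000 to 2000 bases rose at 105 and fell at 22 of 1538, with a median of 0.07. For replicate 3 against 1 and 2 the genes over 8000 bases held 47 higher and 33 lower calls and those of 1000 to 2000 bases 19 and 1, with medians of -0.06 and 0.03. The shortest genes, under 1000 bases, had the lowest medians, -0.17 for replicate 2 against 1 (37 rose and 25 fell of 975) and -0.16 for replicate 3 against 1 and 2 (4 higher and 1 lower). Against replicate 2 alone the medians of replicate 3 in the classes over 8000 and of 1000 to 2000 bases were -0.02 and 0.01. The part of length in these calls was not tested.

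Across protocols, VM replicate 3 against VM replicates 1 and 2 called 3250 of 17227 genes (18.9%), and the split of 58.5% higher became 45.2% with library size as the only scaling. The count was 1223 without VM TRAC replicate 3, 1625 without VM ZNF503 replicate 3 and 1954 without VM LHX2 replicate 3. VM replicates 1 and 2 also differed from each other. Replicate 2 against replicate 1 called 2884 of 17227 genes in VM, 1473 higher and 1411 lower. For VM replicate 3, genes under the rule for named genes included CTSE (2.89), VTN (2.81) and the unnamed ENSG00000285513 (3.26, edgeR adjusted p = 2.84e-04), which rose. They also included EGFEM1P (-2.03, edgeR adjusted p = 3.96e-04), which fell. Of the 231 genes higher in AM replicate 3, 229 were tested in VM, of which 120 (52.4%, against 11% of all genes tested) rose and 10 fell. Of the 66 lower in AM, 63 were tested, of which 17 (27%, against 7.84%) fell and 3 rose. The 120 and 17 are 6.32% and 1.26% of the VM calls in their directions. AM and VM share no library, but libraries with the same target and number deviated together across the protocols. The VM libraries are therefore not taken as an independent check, although the labels do not say what a number shares. Without the ZNF711 libraries, 173 of 424 higher and 48 of 225 lower genes passed in VM in the same direction. In that VM fit 1979 of all 16772 genes tested rose and 1508 fell.

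**Figure D5:**
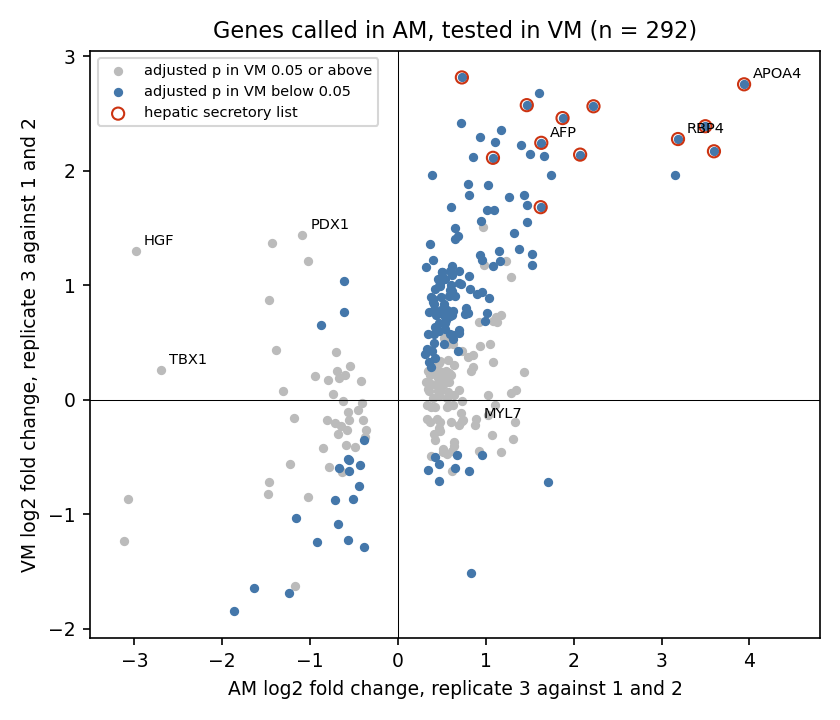
Log2 fold change of replicate 3 against replicates 1 and 2 in AM (horizontal) and VM (vertical) for the 292 genes called in AM and tested in VM. Circled hepatic secretory genes lie at the upper right, and HGF, TBX1 and PDX1, low in AM replicate 3, lie above 0 in VM without passing the test there.

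The difference itself, AM minus VM, was called at 828 of 18564 genes (4.46%), positive at 370 (1.99%) and negative at 458 (2.47%). The share of positive calls went from 44.7% to 58.9% with library size as the only scaling, and 1564 genes were called with a replicate block that pairs AM and VM libraries of one target and number. Of the AM calls, 51 of the 231 higher and 19 of the 66 lower genes were among the 828. By the rule for named genes the positive differences were ADGRG2 (2.32), an adhesion receptor, HSPB3 (1.94), a small heat shock protein, and PLN (1.92), the inhibitor of the sarcoplasmic calcium pump. HSPB3 and PLN lost the call with the replicate block. The negative were CTSE (-3.67), a gastric protease, SHOX2 and HSPA6 (-2.85), a stress-induced chaperone. The count was 208 without VM TRAC replicate 3, 312 without VM ZNF503 replicate 3, 348 without AM ZNF503 replicate 3, 420 without AM TRAC replicate 3, 449 without AM LHX2 replicate 3, 518 without VM LHX2 replicate 3 and 1447 without VM ZNF711 replicate 3.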

How the data were processed

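The deposited table holds whole-number counts per gene for 24 libraries, made by the authors. STAR and GRCh38 are named in the submitters' processing notes. The STAR version, the counting program, strandedness and annotation release are not given in the sources used here, so antisense and overlapping genes cannot be told apart. All count columns matched a library (0 unmatched). Symbols were taken from a gene name table (62686 of 62757 genes), and exon lengths from GENCODE 29. Counts were filtered with filterByExpr, scaled with TMM and tested with edgeR 4.0.16 (R 4.3.3), calls being Benjamini-Hochberg adjusted p below 0.05, after the scripts had been tested on simulated data; DESeq2 1.42.0 was an alternative. Standard errors are the fold change divided by the root of F. Same-numbered AM and VM libraries of a target deviated together (correlations 0.125 to 0.52 in 12 pairs). Same-numbered AM libraries of different targets did so as well (0.174 to 0.533 in 18 pairs). The numbers thus mark a shared deviation. Pairing by target and number in the replicate block is a choice that the labels do not give. Named genes were called, with 4 replicate 3 libraries beyond the 8 others and at least 50 counts in each library of the higher side: the 12 of largest fold change in each direction; in the other comparisons the 3 largest in each direction with that minimum, besides TNNT2, AFP, NR2F2, the targets and 31 gene lists. The comparison, members and lists were chosen with earlier results of these data known. Alternatives changed scaling, filter, tool, block, and libraries left out; those leaving out a target, or using a 3-level replicate factor or a single reference replicate, were chosen after seeing the data. Lists not described above (ventricular, cell cycle, ER stress, heat shock, p53, interferon, mitochondrially encoded, nuclear respiratory chain, blood) held 0 calls by edgeR in AM replicate 3 with all targets, with medians from -0.12 (blood, 2 genes tested) to 0.32 (mitochondrially encoded). Without the ZNF711 libraries 7 of 13 mitochondrially encoded and 3 of 14 nuclear respiratory chain genes were called higher and 1 of 2 blood genes lower. A promoter sequence comparison is not reported here.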

Additional observations from a re-analysis of the deposited data

Results flagged for a closer look

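Of 62 sets of values for 31 genes (the 4 replicate 3 libraries, and the 8 others), 2 held 1 library apart from the rest of its set by Dixon's test, and chance gives about 1 in 20. PRRG4 was 11.89 CPM in AM ZNF503 replicate 3, the lowest of the 4, and TNNT2 was 329.9 CPM in AM LHX2 replicate 3, the highest of the 4.

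The replicate 3 difference itself differed between AM and VM at 828 genes by edgeR's test of the difference, among them 12 named ones, given here as AM minus VM on the log2 scale. It was positive for ADGRG2 (2.32), HSPB3 (1.94), PLN (1.92) and SLC35F2 (0.97). It was negative for CTSE (-3.67), SHOX2 (-3.52), HSPA6 (-2.85), PDX1 (-2.55), ONECUT1 (-2.20), NHS (-1.13), GLI2 (-0.84) and NR2F2 (-0.66). These differences contain the AM value by which the comparison was chosen and are a description. The replicate block that pairs AM and VM libraries ended the call of ONECUT1, HSPB3 and PLN. Leaving out 1 of the 24 libraries at a time ended the call of PLN in 13 fits, HSPB3 in 10, ONECUT1 and GLI2 in 5, NR2F2 and SLC35F2 in 4 and PDX1 in 1, and of ADGRG2, CTSE, SHOX2, HSPA6 and NHS in 0. STAB2 was flagged because its replicate 3 difference varied between the AM targets (edgeR adjusted p = 0.00766). That value also contains the AM difference by which the comparison was chosen, and each target had 1 replicate 3 library. It is printed as the reason for the flag and is not evidence that the targets differed. Without LHX2 replicate 3 the number of genes called was 0. STAB2 was low in replicate 3 of LHX2 and ZNF503 and in all 3 ZNF711 libraries.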

How the results depend on the processing

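For AM replicate 3 against 1 and 2 (297 genes), 577 were called with no filter, 456 with DESeq2, 166 with all 24 libraries in 1 fit and 0 with no target block (1824 at an unadjusted p below 0.05); chosen after seeing the data, a 3-level replicate factor gave 1090, replicate 1 as the only reference 2314, and leaving out TRAC 55, LHX2 102, ZNF503 119 and ZNF711 675. Leaving out 1 library gave 72 to 605. For replicate 2 against 1 (1573), no target block gave 132 and leaving out 1 library 567 to 1869. For the difference between targets (1), no filter gave 30, DESeq2 7 and leaving out 1 library 0 to 8. For VM (3250), no target block gave 1836 and leaving out 1 library 1223 to 3718. For AM minus VM (828), the replicate block that pairs AM and VM libraries gave 1564, of which 780 were among the 828, and leaving out 1 library gave 208 to 1447. Under the block HSPB3, PLN and ONECUT1 lost the call and TNNT2 gained it, and the other 10 named genes kept theirs or stayed uncalled. The fold changes of TNNT2 and AMBP in AM, both uncalled, changed sign. TNNT2 was 0.147 against replicate 2 only. AMBP was -0.00143 with library size alone, -0.0921 against replicate 2 only, -0.0922 without the LHX2 and -0.0945 without the ZNF503 libraries, and -0.0951 to 0.26 leaving out 1 library. The causes of these changes were not tested. At these depths a floor of 3 counts was 0.468 to 0.963 CPM in AM, so APOC3, AHSG and APOA4 rest on few counts in replicates 1 and 2. RBP4 was also low there, with 4 counts in its lowest library.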
